A study of Homo sapiens with 12 samples.

Results

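The genes of ether lipid metabolism AGMO, AGPS, CEPT1 and CHPT1, were followed in A375 cells treated with SB-3CT, with interferon gamma (IFNγ) or with both. They were picked by symbol from a table of 4918 genes, and all 4 were present and above 0 in every one of the 12 samples. AGMO was included because it was lower with each single treatment, so its levels are given as a description without a test. AGPS, CEPT1 and CHPT1 were included for their place in the pathway, though the choice was made with earlier results of these data known. A375 is an established human melanoma cell line, SB-3CT is a small-molecule inhibitor of the gelatinases MMP2 and MMP9, and IFNγ is a cytokine used here to induce PD-L1. The 4 groups were control cells (labelled as not treated, though the protocol names a vehicle) and cells treated for 24 h with SB-3CT, IFNγ, or SB-3CT and IFNγ, with 3 samples in each, all of the same line. The doses given to these samples were not stated in the labels.

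Ether lipids carry a fatty alcohol joined to glycerol by an ether bond where other glycerophospholipids carry an ester-linked fatty acid. The bond is made in the peroxisome by AGPS (alkylglycerone phosphate synthase), which exchanges the acyl group of acyl-dihydroxyacetone phosphate for a fatty alcohol. After further steps in the endoplasmic reticulum, the headgroup is added by phosphotransferases, of which CHPT1 uses CDP-choline and CEPT1 uses CDP-choline or CDP-ethanolamine. Both also make ordinary phosphatidylcholine. AGMO (alkylglycerol monooxygenase) works in the opposite direction: with tetrahydrobiopterin as cofactor it cleaves the ether bond of alkylglycerols, releasing a fatty aldehyde. The genes GNPAT and FAR1, which act beside AGPS in the peroxisome, come after FAM46B, the last symbol in the table, and were not analysed here.

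The values were FPKM (fragments mapped to a gene, per length of its transcript and per size of the library), deposited as log2(FPKM + 1). Levels below are in FPKM, and changes are differences of group means of log2(FPKM + 1), a scale that makes the changes of weakly expressed genes look smaller than they are. The depth of the samples, read from the steps in the lowest values, ranged from 87.1% (an IFNγ sample) to 149.9% (another IFNγ sample) of the control mean, with each treated group spread across it, and the absolute number of reads was not given in the sources used here. As a check of the IFNγ labels, CXCL10, an IFNγ-induced chemokine gene, rose by 6.35 over control on the log2 scale (SE 0.06, adjusted p = 9.97e-08 from limma) and CD274, which encodes PD-L1, by 3.88 (SE 0.10, adjusted p = 3.87e-06 from limma). Of 7 melanocyte lineage markers, 5 had a mean of at least 1 FPKM, CSPG4 and ERBB3 being the most abundant, whereas DCT stayed between 0.0638 and 0.278 FPKM in the group means and ABCB5 was at most 0.0246 FPKM in any sample. The 3 fibroblast markers summed to at most 0.613 FPKM in any sample. Of 2 epithelial and 2 immune markers in the table, EPCAM and CD14 had group means of at most 0.0845 and 0.138 FPKM. CLDN4 was expressed in all samples, as was CD68, and the summed immune markers, nearly all CD68, were 19.8 to 23.0 FPKM in control, 23.4 to 25.6 under SB-3CT, 26.4 to 31.7 under IFNγ and 27.7 to 29.7 under both. Across the 3177 genes with a mean of at least 1 FPKM, the median change with SB-3CT and IFNγ was -0.20 against IFNγ and -0.21 against SB-3CT, and those of the single treatments against control were -0.03 and -0.04. In these bulk samples, a loss of transcript from some cells and a lower level in each cell cannot be told apart.

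AGMO lies on the minus strand of chromosome 7 (hg19, chr7:15239942-15601640), and its canonical transcript has 13 exons and 2476 bases. AGPS lies on the plus strand of chromosome 2 (chr2:178257474-178431752; 20 exons, 7633 bases), CEPT1 on the plus strand of chromosome 1 (chr1:111682101-111727726; 9 exons, 2203 bases) and CHPT1 on the plus strand of chromosome 12 (chr12:102090725-102137918; 9 exons, 1572 bases). In GENCODE no other gene overlaps AGMO. AGPS overlaps NFE2L2 and TTC30B, CEPT1 overlaps DRAM2 and 2 long non-coding RNAs, and CHPT1 overlaps SYCP3, all on the opposite strand, and a Y RNA gene lies within CHPT1 on the same strand. Whether the counting used strand was not given in the sources used here, so reads of these pairs may have been shared. The promoters of AGMO and AGPS are shown because, of the 4 genes, theirs hold the fewest and the most CpG dinucleotides. These are the 250 bases before the RefSeq start, found once each in hg19 at chr7:15601641-15601890 (minus strand) and chr2:178257251-178257500 (plus strand), written from 5′ to 3′ with CpG dinucleotides in capitals.
AGMO: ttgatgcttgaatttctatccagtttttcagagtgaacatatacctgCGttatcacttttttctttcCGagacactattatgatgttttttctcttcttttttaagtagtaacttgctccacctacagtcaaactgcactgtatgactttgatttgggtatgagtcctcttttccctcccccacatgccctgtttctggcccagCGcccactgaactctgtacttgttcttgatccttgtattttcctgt
AGPS: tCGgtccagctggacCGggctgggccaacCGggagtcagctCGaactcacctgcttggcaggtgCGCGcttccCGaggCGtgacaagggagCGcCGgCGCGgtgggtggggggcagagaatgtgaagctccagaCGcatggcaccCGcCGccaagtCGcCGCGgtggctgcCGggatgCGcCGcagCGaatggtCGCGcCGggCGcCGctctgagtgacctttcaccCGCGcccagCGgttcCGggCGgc
The AGMO window holds 3 CpG dinucleotides and is 40.4% G + C. The AGPS window holds 32 and is 72.4% G + C, and those of CEPT1 and CHPT1 hold 27 and 28. Over 35116 promoter windows of this length in RefSeq, the median was 11 CpG and 58.0% G + C, and 22.9% of windows held fewer CpG than that of AGMO. The letters GAAA followed after 2 bases by another GAAA, the core of the interferon-stimulated response element, were searched on both strands. They were not found in the window of any of the 4 genes, and they occur in 3.02% of all windows.

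AGMO, the ether lipid cleaving enzyme, was highest in control cells and lower in each treated group. Its level was 20.7, 21.1 and 21.5 FPKM in the 3 control samples and 8.65, 9.43 and 9.35 FPKM with SB-3CT. With IFNγ it was 5.31, 6.21 and 5.59 FPKM, and with SB-3CT and IFNγ it was 3.74, 3.99 and 4.33 FPKM. The 4 groups did not overlap, so the order from control through SB-3CT and IFNγ to the combination held for every sample. Group means were 21.1 ± 0.411, 9.14 ± 0.426, 5.70 ± 0.459 and 4.02 ± 0.295 FPKM (SD, n = 3 each). SB-3CT thus left 43.3% of the control mean, IFNγ 27.0% and the combination 19.0%.

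**Figure D1:**
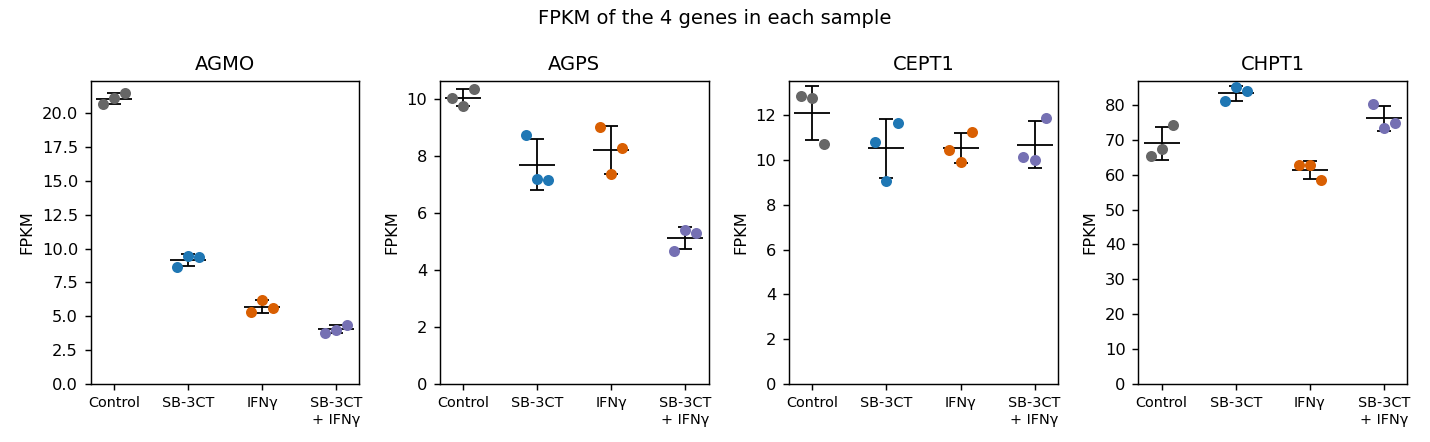
FPKM (vertical axis, from 0) of AGMO, AGPS, CEPT1 and CHPT1 in each sample of the 4 groups, with the mean and SD (n = 3) as a bar and whiskers. AGMO steps down from 21.1 to 4.02 FPKM with no overlap of groups, AGPS is lowest with both agents, CEPT1 overlaps throughout and CHPT1 is highest with SB-3CT.

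On the log2 scale the difference of AGMO from control was -1.12 with SB-3CT (SE 0.05) and -1.72 with IFNγ (SE 0.06). Among the 3177 genes with a mean of at least 1 FPKM, ranked from the largest fall, these differences took rank 3 and rank 1, values that come from the same contrasts that put AGMO on the list. IFNγ on top of SB-3CT gave a difference of -1.02 (SE 0.07), rank 11. SB-3CT on top of IFNγ gave -0.42 (SE 0.09), rank 770. The last of these moved to -0.21 after scaling by the median ratio (the median over genes of a sample's FPKM relative to the geometric mean across samples) and to -0.11 after quantile normalization, while that of IFNγ on top of SB-3CT became -0.80 under both.
The difference with both agents, -2.14 against control, was smaller in size than the sum of the differences with each agent alone, -2.85, a gap of 0.71 that rests on the same falls that put AGMO on the list. In FPKM, the product of the ratios with each agent would leave 11.7% of control, and 19.0% was measured. The summed level of the 7 melanocyte lineage markers, of which CSPG4 and ERBB3 made up most, was 120 to 123 FPKM in control, 94.5 to 104 under SB-3CT, 93.3 to 97.0 under IFNγ and 66.4 to 72.2 under both. Not every marker followed the sum: EDNRB was at 114.5% of its control mean under IFNγ and BCAN at 109.2% under SB-3CT. Their part in the level of AGMO was not tested.

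AGPS, the enzyme that makes the ether bond, was lowest with the combination. Its level was 10.0, 9.76 and 10.4 FPKM in control and 8.72, 7.18 and 7.17 FPKM with SB-3CT. With IFNγ it was 9.04, 7.35 and 8.29 FPKM, and with both agents it was 4.67, 5.40 and 5.28 FPKM. All control samples lay above, and all samples with both agents below, those with a single agent, while the SB-3CT and IFNγ samples overlapped. Mean levels were 10.1 ± 0.299 FPKM in control, 7.69 ± 0.895 with SB-3CT, 8.23 ± 0.843 with IFNγ and 5.12 ± 0.389 with both (SD, n = 3 each), so the combination left 50.9% of control.
In the comparison of SB-3CT with control, AGPS fell by 0.35 on the log2 scale (SE 0.08, adjusted p = 0.0363 from limma). In that comparison 12.2% of all 4918 genes passed an adjusted p-value of 0.05, 6.87% as lower. The call was lost with control replicate 1, 2 or 3 or SB-3CT replicate 2 or 3 left out (adjusted p = 0.114 to 0.133 from limma) and kept without SB-3CT replicate 1 (adjusted p = 0.0107). With IFNγ the difference from control was -0.26 (SE 0.08, adjusted p = 0.0634 from limma, where 19.5% of all genes passed). It did pass after scaling by the median ratio (-0.22, adjusted p = 0.0252) and after quantile normalization (-0.32, adjusted p = 0.00617).
With SB-3CT on top of IFNγ AGPS fell by 0.59 (SE 0.09, adjusted p = 0.00354 from limma), where 31.5% of all genes were lower. With IFNγ on top of SB-3CT it fell by 0.50 (SE 0.09, adjusted p = 0.00783 from limma), where 32.7% were lower. After scaling by the median ratio these were -0.37 (adjusted p = 0.01) and -0.28 (adjusted p = 0.0518). AGPS has the longest transcript of the 4 genes. With the dependence of the values on transcript length removed per sample, an alternative added after the data were seen, its change with SB-3CT under IFNγ was -0.17 (adjusted p = 0.0571 from limma).

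CHPT1, the choline phosphotransferase, was the most abundant of the 4 genes per length of transcript and was higher with SB-3CT whether or not IFNγ was present. Its level was 65.5, 67.4 and 74.4 FPKM in control and 81.1, 85.3 and 84.0 FPKM with SB-3CT. With IFNγ it was 62.7, 62.9 and 58.6 FPKM, and with both agents it was 80.4, 73.4 and 74.9 FPKM. The SB-3CT samples lay above all others and the IFNγ samples below all others, while the combination overlapped with control in the range of 73.4 to 74.4 FPKM. SB-3CT raised CHPT1 by 0.27 over control (SE 0.06, adjusted p = 0.0267 from limma), where 5.37% of all genes were higher, and by 0.31 over IFNγ alone (SE 0.06, adjusted p = 0.00554 from limma), where 6.41% were higher. The second rise was 0.56 after scaling by the median ratio, 0.30 after quantile normalization and 0.31 without the length trend (adjusted p = 0.00243, 0.00667 and 0.00945 from limma). The rise over control lost its call without control replicate 1 or 2 or SB-3CT replicate 2 or 3 (adjusted p = 0.09 to 0.108), whereas that over IFNγ kept it in all 6 fits that left out a sample. The effect of IFNγ was -0.17 against control (SE 0.06, adjusted p = 0.109 from limma) and -0.13 on top of SB-3CT (SE 0.04, adjusted p = 0.0629 from limma), comparisons in which 11% and 32.7% of all genes were lower and 8.46% and 7.85% higher. The latter was 0.13 after scaling by the median ratio, so its direction depended on the scaling.

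CEPT1, which makes both choline and ethanolamine phospholipids, did not pass the test in any comparison. Its level was 12.9, 12.8 and 10.7 FPKM in control and 10.8, 9.07 and 11.7 FPKM with SB-3CT. With IFNγ it was 10.4, 9.90 and 11.2 FPKM, and with both agents it was 10.2, 10.0 and 11.9 FPKM. All 4 groups overlapped. The differences were -0.19 with SB-3CT (95% interval -0.43 to 0.06) and -0.18 with IFNγ (95% interval -0.39 to 0.02) against control, 0.02 with SB-3CT on top of IFNγ (95% interval -0.18 to 0.22) and 0.02 with IFNγ on top of SB-3CT (95% interval -0.24 to 0.28). A fall of the size seen in AGPS with SB-3CT alone thus lay within the first interval. The difference with SB-3CT on top of IFNγ depended on the scaling. It was 0.25 after scaling by the median ratio (adjusted p = 0.0533 from limma) and 0.25 after quantile normalization (adjusted p = 0.0723 from limma). Both values lay above the interval given for it.

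**Figure D2:**
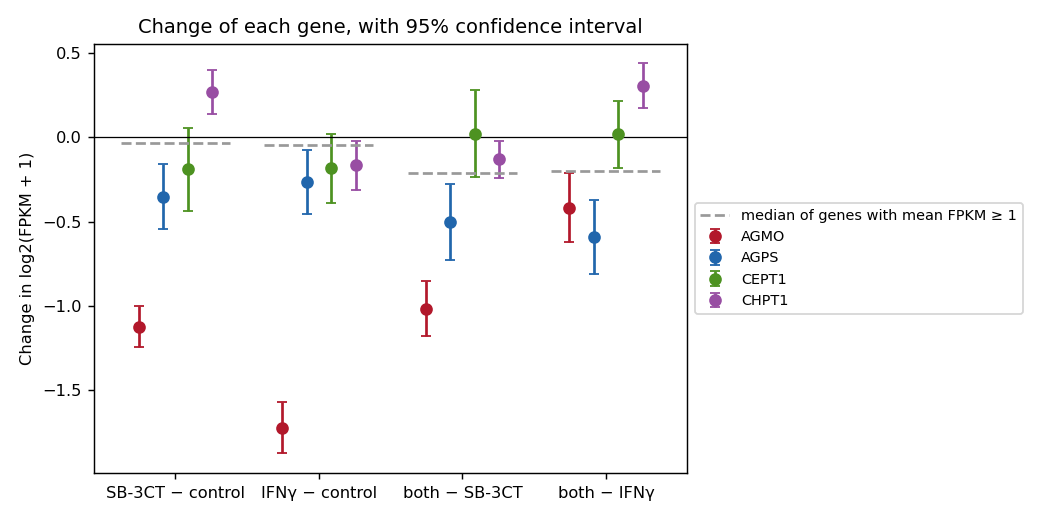
Change in log2(FPKM + 1) (vertical axis) of AGMO, AGPS, CEPT1 and CHPT1 in 4 comparisons, with 95% confidence intervals from limma (for AGMO a description only), beside the median change of the 3177 genes with a mean of at least 1 FPKM (dashed). AGMO has the largest fall of the 4 with IFNγ (-1.72), and AGPS lies under the median line in each comparison. CHPT1 lies above it where SB-3CT was added (0.27 and 0.31) and with IFNγ on top of SB-3CT (-0.13, median -0.21).

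Whether SB-3CT acted differently with and without IFNγ was asked with the interaction term over all 12 samples, for which 22.3% of all genes passed, 4.74% with a positive and 17.6% with a negative term. The difference between the SB-3CT changes was -0.24 for AGPS (95% interval -0.51 to 0.03, adjusted p = 0.191 from limma), 0.21 for CEPT1 (95% interval -0.10 to 0.52, adjusted p = 0.323) and 0.04 for CHPT1 (95% interval -0.14 to 0.21, adjusted p = 0.791). None of the 3 passed. The median term of the 3177 genes with a mean of at least 1 FPKM was -0.19. The value for AGPS turned to 0.024 after quantile normalization, and that for CHPT1 turned when control replicate 3 or the first sample with both agents was left out (-0.02 and -0.0022).

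Other enzymes of ether lipid synthesis and breakdown in the table were DHRS7B, EPT1 and ALDH3A2. DHRS7B, which reduces the product of AGPS in the next step, rose with SB-3CT, by 0.27 over control (SE 0.06, adjusted p = 0.028 from limma) and by 0.32 over IFNγ alone (SE 0.08, adjusted p = 0.0172 from limma). Its levels were 13.2, 13.2 and 12.9 FPKM in control and 15.01, 16.1 and 16.9 FPKM in the SB-3CT samples, and 12.6, 11.4 and 13.2 FPKM in the IFNγ samples and 16.9, 15.4 and 14.7 FPKM in those given both. Groups with SB-3CT did not overlap with their counterparts without it. EPT1 (now SELENOI), the ethanolamine counterpart of CHPT1, went the other way, with falls of 0.41 against control (SE 0.09, adjusted p = 0.0323 from limma) and 0.61 against IFNγ alone (SE 0.09, adjusted p = 0.00311 from limma). Its levels were 12.3, 12.6 and 12.9 FPKM in control and 10.7, 8.22 and 8.90 FPKM in the SB-3CT samples, and 15.5, 12.7 and 13.1 FPKM in the IFNγ samples and 7.90, 9.08 and 8.96 FPKM in those given both. The choline and ethanolamine phosphotransferases CHPT1 and EPT1 therefore moved in opposite directions with SB-3CT, and both kept their direction and call after scaling by the median ratio, at 0.31 and -0.37 against control and 0.56 and -0.38 against IFNγ. The call of CHPT1 over control depended on single samples, as given above, and EPT1 was read under no alternative but this scaling. ALDH3A2 oxidises fatty aldehydes such as those released by AGMO. It was 0.13 above control with SB-3CT (adjusted p = 0.161 from limma) and fell by 0.31 with SB-3CT under IFNγ (SE 0.07, adjusted p = 0.0145 from limma) and by 0.62 with IFNγ under SB-3CT (SE 0.05, adjusted p = 0.000576 from limma). After scaling by the median ratio the first fall was -0.07 (adjusted p = 0.31), whereas the difference from control with SB-3CT passed (0.17, adjusted p = 0.0411). IFNγ alone changed none of the 3 by the test, with differences of -0.08 for DHRS7B, 0.12 for EPT1 and -0.17 for ALDH3A2.

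Tetrahydrobiopterin is the cofactor of AGMO, and the reductases AKR1B1, AKR1C3 and CBR1 act in side routes of its synthesis. The aldo-keto reductases AKR1B1 and AKR1C3 rose with SB-3CT, by 0.52 and 0.66 against control (adjusted p = 0.0041 and 0.00285 from limma) and by 0.50 and 0.84 against IFNγ (adjusted p = 0.00236 and 0.00139). IFNγ alone lowered AKR1C3 from 28.5 ± 0.910 to 16.7 ± 0.370 FPKM (SD, n = 3), a change of -0.74 (adjusted p = 0.00014 from limma). AKR1C3 has close paralogs that can share its reads. CBR1, a carbonyl reductase, was 0.46 higher with SB-3CT without passing the test (adjusted p = 0.0729 from limma), and its first replicate was low in both control and IFNγ, at 63.7 and 70.5 FPKM against 93.1 to 96.1 FPKM in the others.

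Of 26 phospholipid synthesis genes in the table, 3 were higher and 0 lower with SB-3CT against control, or 11.5% of the list where 12.2% of all genes passed. The median change was 0.05 in the list and -0.01 over all 4918 genes. The 3 were AGPAT2, an acyltransferase of phosphatidic acid synthesis (0.30), CDIPT, phosphatidylinositol synthase (0.29), and CHKA, choline kinase alpha (0.28). With IFNγ against control, 5 were higher and 2 lower, or 26.9% of the list where 19.5% of all genes passed (median 0.02, all genes -0.02). The rises included those of DGKG, a diacylglycerol kinase (0.87), AGPAT3, another acyltransferase (0.75), and CHKB, choline kinase beta (0.47), and the falls were those of CDS1, a CDP-diacylglycerol synthase (-1.12), and DGKA, also a diacylglycerol kinase (-0.44). CDS1 went from 3.19, 2.82 and 2.65 FPKM in control to 0.775, 0.751 and 0.817 with IFNγ. It was 2.66, 2.24 and 2.30 FPKM with SB-3CT and 0.548, 0.512 and 0.405 with both agents, a change of -1.19 with IFNγ on top of SB-3CT (SE 0.07, adjusted p = 0.000233 from limma).
With SB-3CT on top of IFNγ, 1 of the 26 was higher and 10 were lower (median -0.20, all genes -0.09), or 42.3% of the list where 37.9% of all genes passed, 6.41% as higher and 31.5% as lower. After scaling by the median ratio, 4 were higher and 2 lower, so the excess of lower genes was not kept. The rise was that of CRLS1, cardiolipin synthase (0.38), and the largest falls were those of ETNK1, ethanolamine kinase (-0.49), DGKG (-0.42) and CHKA (-0.40). Only those of CRLS1 and ETNK1 among these 4 passed after that scaling (0.62 and -0.27). With IFNγ on top of SB-3CT, 2 were higher, AGPAT3 (0.30) and DGKG (0.27), and 8 were lower, among them CDS1, DGKA (-0.79) and CHKA (-0.73), where 7.85% of all genes were higher and 32.7% lower. These counts became 4 and 3 once samples were scaled by the median ratio.

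Of 24 peroxisomal proteins, the compartment in which AGPS works, 1 was higher and 3 lower with SB-3CT against control, 3 higher and 3 lower with IFNγ against control, 1 higher and 8 lower with SB-3CT on top of IFNγ, and 2 higher and 9 lower with IFNγ on top of SB-3CT. The list's shares were 16.7%, 25%, 37.5% and 45.8%, where 12.2%, 19.5%, 37.9% and 40.5% of all genes passed, most of them lower with both agents (31.5% and 32.7% of all genes). After scaling by the median ratio the last comparisons gave 6 higher and 5 lower, and 5 higher and 3 lower. AMACR, a racemase of branched-chain fatty acid oxidation, was lower in each comparison. It was at 20.4, 21.4 and 21.9 FPKM in control and 13.0, 12.1 and 12 FPKM in the SB-3CT samples, and 13.4, 11.1 and 12.8 FPKM in the IFNγ samples and 7.99, 8.86 and 8.51 FPKM in those given both. The single treatments overlapped and lay between the other groups. Its changes from control were -0.73 with SB-3CT (SE 0.05, adjusted p = 0.000908 from limma) and -0.73 with IFNγ (SE 0.08, adjusted p = 0.00175 from limma). Catalase (CAT) fell by 0.22 with SB-3CT and by 0.46 with IFNγ, by a further 0.57 with SB-3CT on top of IFNγ and by 0.82 with IFNγ on top of SB-3CT (adjusted p = 0.0182, 0.00105, 0.00207 and 0.000241 from limma). DNM1L, a dynamin that divides peroxisomes and mitochondria, fell with SB-3CT by 0.44 and under IFNγ by 0.77, while DHRS4, a peroxisomal reductase, rose with SB-3CT by 0.16. With IFNγ, DDO, D-aspartate oxidase (0.57), and ACBD5 (0.47), which tethers peroxisomes to the endoplasmic reticulum, rose and ACOT8, a thioesterase, fell by 0.34. ECI2, an enoyl-CoA isomerase, rose with both agents against IFNγ (0.38) and against SB-3CT (0.47), as did ACOX2, an acyl-CoA oxidase, against SB-3CT (0.34). ACBD5 fell by 0.58 with SB-3CT under IFNγ.
Over all 57 genes read in these lists, 21.1% passed with SB-3CT against control, where 12.2% of all genes did, and 24.6% with IFNγ against control, where 19.5% did. With both agents, 45.6% passed against IFNγ and 42.1% against SB-3CT, where 37.9% and 40.5% of all genes did. The shares of all genes, here and for each list above, include genes averaging under 1 FPKM and were not matched to the lists in level. With only the 3177 genes averaging at least 1 FPKM tested, 17 list genes and 901 of all passed with SB-3CT against control. With IFNγ against control these were 14 and 1045, and with SB-3CT on top of IFNγ 28 and 1858. These list counts are not out of 57. AGPAT4, DGKE, DGKH, DGKI, ETNPPL, ABCD2, BAAT, EHHADH and EPHX2 averaged under 1 FPKM and were not tested there. Among the genes tested, the share of list genes was above that of all genes with SB-3CT against control. It was not above it in the comparisons of IFNγ with control and of SB-3CT on top of IFNγ.

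**Figure D3:**
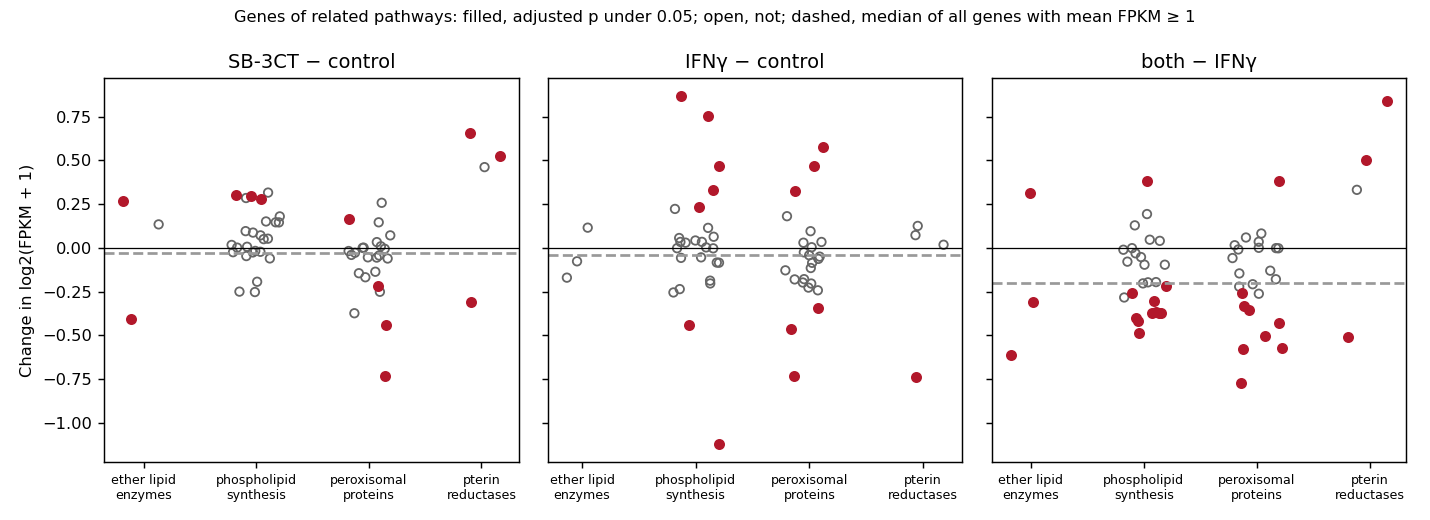
Change in log2(FPKM + 1) (vertical axis) of 57 genes in 4 lists (horizontal axis) in 3 comparisons; filled points had an adjusted p under 0.05, open points did not, and the dashed line is the median of the 3177 genes with a mean of at least 1 FPKM. With SB-3CT against control AMACR lies lowest (-0.73), with IFNγ CDS1 does (-1.12), and with both agents against IFNγ the dashed line itself lies at -0.20.

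The genes whose pattern was most like that of AGMO were found by the root mean square difference from AGMO over the 12 samples, after each gene was centred on its control mean. Of 3176 other genes with a mean of at least 1 FPKM, the nearest were ADAM19 (0.50 on the log2 scale), DHCR7 (0.51), ARHGAP5-AS1 (0.55), CHRDL1 (0.59) and ANK3 (0.63), against a median of 1.40 over all 3176. ARHGAP5-AS1 is an antisense RNA whose reads may be shared with ARHGAP5. ADAM19 encodes a membrane metalloproteinase, DHCR7 the last enzyme of cholesterol synthesis and ANK3 ankyrin G. The samples share cultures, treatments and depth with those of AGMO, and the likeness is a description. All 5 were lowest with both agents, but each was less reduced than AGMO in every treated group. With IFNγ, DHCR7 was at 9.92, 9.76 and 10.0 FPKM and with SB-3CT at 10.3, 10.1 and 9.86 FPKM, without the step between SB-3CT and IFNγ that AGMO showed. Of the genes in the pathway lists, CDS1 (rank 7) and AMACR (rank 12) came nearest to AGMO, a remark made after their values were seen.

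**Figure D4:**
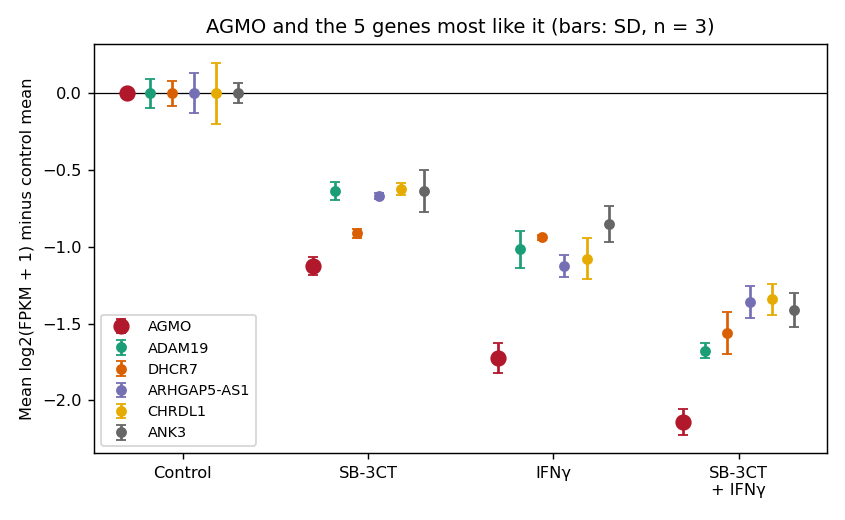
Mean log2(FPKM + 1) minus the control mean (vertical axis) of AGMO and of the 5 genes with the smallest root mean square difference from it, in the 4 groups, with the SD (n = 3) as bars. AGMO lies at -1.12, -1.72 and -2.14 in the treated groups, below all 5 in each.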

How the data were processed

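Per the labels and methods, the authors sequenced both ends of each fragment, 150 bases per end, mapped the reads to hg19 in HISAT2 2.0.5 and obtained FPKM per gene from StringTie 1.3.3. The authors' deposited values are described as FPKM but read as log2(FPKM + 1): back-transformed, each sample sums to between 121928 and 129692 FPKM. Column names gave the sample, and 0 columns were left unused. The 4918 genes run from A1BG to FAM46B.

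Tests used limma 3.58.1 under R 4.3.3 (eBayes with trend, unpaired, 3 + 3 samples, or all 12 for the interaction), and p-values were adjusted over all 4918 genes by the Benjamini-Hochberg method. Where nothing says that samples came from separate cultures, p-values measure only the spread between these samples. The code was tested on simulated data. The members and gene lists were chosen with earlier results of these data known. Named genes are the members, in each list and comparison the 3 largest rises and 3 largest falls that passed (all genes of lists of at most 4), the 5 genes most like AGMO, and CXCL10 and CD274. Some genes that this rule names are not reported here. Alternatives were 2 scalings, another pseudocount (0.1), only genes averaging 1 FPKM or more, all groups in 1 fit, a replicate block, eBayes without trend, a per-gene test, omission of each sample and, added later, removal of the trend with transcript length. Positions and lengths came from GENCODE release 44 on GRCh37, matched to 4458 symbols directly and 417 through older symbols, and promoters came from RefSeq (GRCh38.p14).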

Additional observations from a re-analysis of the deposited data

Results flagged for a closer look

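The interaction term of limma passed in 10 of the 57 pathway genes, or 17.5%, a lower share than the 22.3% of all genes. It passed in 0 of the 3 tested members. Over the 3177 genes with a mean of at least 1 FPKM the median term was -0.19, and -0.02 after scaling by the median ratio. At an unadjusted p-value under 0.05, 0 of these 3 members passed either. CHKA had the largest difference (-0.68, adjusted p = 0.00587), from 7.10, 6.64 and 7.45 FPKM in control to 8.23, 9.03 and 9.05 with SB-3CT, and from 7.81, 5.93 and 6.65 with IFNγ to 4.77, 5.19 and 4.68 with both. Of the others reported here, the differences were -0.60 for DGKG (adjusted p = 0.00587), -0.57 for DGKD (adjusted p = 0.0104), -0.46 for AGPAT3 (adjusted p = 0.00973), -0.44 for ALDH3A2 (adjusted p = 0.00874), -0.37 for AGPAT9 (adjusted p = 0.0128), -0.36 for CAT (adjusted p = 0.00738) and -0.25 for CDIPT (adjusted p = 0.0142). Of these 10, ECI2 had a higher change under IFNγ (0.43, adjusted p = 0.00559 from limma). After scaling by the median ratio, CHKA (-0.50), DGKG (-0.43), DGKD (-0.39), ALDH3A2 (-0.25) and ECI2 (0.64) still passed, with adjusted p-values from 0.00411 to 0.0249 in limma, and the other 5 did not. AMACR (0.42, adjusted p = 0.00565) and AKR1C3 (0.39, adjusted p = 0.0227) passed under that scaling only, so that 3 terms were positive and 4 negative, against 1 and 9.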

How the results depend on the processing

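AGMO was lower in each of its 4 comparisons under every alternative run. A pseudocount of 0.1 gave -1.20 with SB-3CT, -1.87 with IFNγ and -1.17 with IFNγ on top of SB-3CT. Scaling by the median ratio, quantile normalization and removal of the length trend (added after the data were seen) gave -0.21, -0.11 and -0.25 for SB-3CT on top of IFNγ, -0.80, -0.80 and -0.85 for IFNγ on top of SB-3CT, and 0.87, 0.98 and 0.87 for the interaction.
For AGPS with SB-3CT against control (-0.35), the adjusted p-value was 0.0626 in limma with the replicate block. It was 0.123 in the per-gene equal-variance test, which was run outside limma. The change was -0.43 to -0.31 with one sample left out. With IFNγ against control AGPS passed with the filter on FPKM (-0.26), both scalings (-0.22 and -0.32), all groups in 1 fit (-0.26, adjusted p = 0.0492 in limma) and without the length trend (-0.31, adjusted p = 0.00466), and was -0.33 to -0.19 with one sample left out, passing without IFNγ replicate 1. It no longer passed for SB-3CT on top of IFNγ without the length trend (-0.17) and for IFNγ on top of SB-3CT with scaling by the median ratio (-0.28). Its interaction was 0.024 with quantile normalization and 0.068 without the length trend.
CHPT1 with SB-3CT against control (0.27) had an adjusted p-value of 0.104 in the per-gene test and ranged from 0.23 to 0.32 with one sample left out. With IFNγ it passed with all groups in 1 fit (-0.17, adjusted p = 0.0486 in limma). With IFNγ on top of SB-3CT it was 0.13 with scaling by the median ratio and -0.17 to -0.10 with one sample left out, passing without replicate 1 of the combination. Its interaction was -0.017 to 0.074 with one sample left out. CEPT1 stayed uncalled, and with one sample left out ranged from -0.055 to 0.062 for SB-3CT on top of IFNγ and from -0.071 to 0.095 for IFNγ on top of SB-3CT. Scaling by the median ratio and quantile normalization moved the former to 0.25 and 0.25 and the latter to 0.26 and 0.19. Its interaction became 0.40 and 0.41 (adjusted p = 0.0836 and 0.0807 in limma).
Of the 57 pathway genes, 12 passed with SB-3CT against control, 6 with the replicate block, 5 in the per-gene test and 3 to 14 with one sample left out. With IFNγ 14 passed, 8 in the per-gene test and 7 to 12 with one sample left out. With SB-3CT on top of IFNγ 26 passed, 16 in the per-gene test, 15 without the length trend and 14 to 30 with one sample left out. With IFNγ on top of SB-3CT 24 passed, and 14 with the replicate block. The counts of all genes follow, except for the per-gene test and the length trend with SB-3CT on top of IFNγ and for this block. Where they are not given, a lower count is not read as a result about the lists. For the interaction 10 passed, and 10 to 17 with one sample left out.
Of all 4918 genes, 602 passed with SB-3CT against control, 259 with the replicate block, 84 in the per-gene test and 73 (without control replicate 2) to 912 (without SB-3CT replicate 1) with one sample left out. With IFNγ 958 passed, 602 in the per-gene test and 562 (without control replicate 3) to 982 with one sample left out. With SB-3CT on top of IFNγ 1862 passed, and 1230 (without IFNγ replicate 3) to 1977 with one sample left out. With IFNγ on top of SB-3CT 1994 passed, and 1179 with scaling by the median ratio. For the interaction 1099 passed, 641 and 640 with the 2 scalings and 678 (without control replicate 2) to 1450 with one sample left out. The causes were not tested.
In the 4 comparisons of groups, correlations of the deviations of same-numbered samples lay between -0.39 and 0.17. With 3 samples per group, such correlations cannot show whether the replicate numbers pair the samples.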
